A study of Mus musculus with 6 samples.

Results

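The Twist, Id and E-protein genes encode transcription factors of the basic helix-loop-helix (bHLH) kind, which act as pairs of proteins. The 9 genes of these 3 families were followed, chosen by their symbols: Twist1 and Twist2, Id1 to Id4, and the E-protein genes Tcf3, Tcf4 and Tcf12. Each was found by 1 probe set whose transcript accession matched the gene in RefSeq, so all 9 of 9 members were measured, among 17331 genes with a symbol on the array. Tcf3 is the E2A gene and Tcf4 the ITF2 gene here, not the HMG-box genes Tcf7l1 and Tcf7l2, which have carried the same symbols. With 9 probes per gene and 20, 50 and 18 RefSeq transcripts listed for Tcf3, Tcf4 and Tcf12, isoforms were not told apart.

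RNA came from MC3T3-E1 cells, a preosteoblast line from mouse calvaria, at passage 5-12 per the labels. The differentiated group (OB_Veh, 3 arrays) was kept for 15 days in complete medium with 10 mM glycerol-2-phosphate and 50 ug/mL ascorbic acid. The undifferentiated group (POB_Veh, 3 arrays) was grown in complete medium alone (alpha MEM with 10% fetal bovine serum and antibiotics). All 6 cultures had the ethanol vehicle for 24 h, and the labels state biological triplicates. The supplements, the time in culture and differentiation changed together between the groups and cannot be told apart. Each date in the image names also belonged to 1 group only, so date and group cannot be told apart.

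E-proteins are present in most tissues and bind DNA sites called E-boxes, as pairs with each other or with tissue-restricted bHLH partners. Twist1 and Twist2 are such partners in mesenchyme, and in mouse Twist1 is known to hold back RUNX2 and early osteoblast differentiation in the calvaria. Id proteins have the helix-loop-helix but lack the basic region that touches DNA, so they take E-proteins out of DNA-binding pairs. Id1, Id2 and Id3 are classical early targets of BMP signalling, and Id4 is known in mouse to favour osteoblast over adipocyte differentiation. Loss of 1 copy of TWIST1 or TCF12 in humans causes early fusion of the skull sutures.

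The sequences around the start sites of the 3 genes that changed, Twist1, Id4 and Tcf3, are shown with that of Id2, an Id gene that did not pass the test. They run 250 bases before to 50 bases after the start, 5′ to 3′ on the gene's strand, as listed by RefSeq on GRCm38.p6. Capitals mark every CANNTG, the E-box, and every GGCGCC, a GC-rich element known from SMAD binding at Id1. Both motifs read the same on both strands, and no 2 matches overlapped in the windows of the 7 of 9 genes with an entry.
Twist1, chr12:33957421-33957720, plus strand: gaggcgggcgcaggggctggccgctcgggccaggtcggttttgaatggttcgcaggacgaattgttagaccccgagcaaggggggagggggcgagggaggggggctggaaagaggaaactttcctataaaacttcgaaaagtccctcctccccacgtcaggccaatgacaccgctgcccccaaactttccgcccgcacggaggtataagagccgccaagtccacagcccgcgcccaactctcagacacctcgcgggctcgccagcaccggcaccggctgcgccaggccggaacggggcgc
Id4, chr13:48260866-48261165, plus strand: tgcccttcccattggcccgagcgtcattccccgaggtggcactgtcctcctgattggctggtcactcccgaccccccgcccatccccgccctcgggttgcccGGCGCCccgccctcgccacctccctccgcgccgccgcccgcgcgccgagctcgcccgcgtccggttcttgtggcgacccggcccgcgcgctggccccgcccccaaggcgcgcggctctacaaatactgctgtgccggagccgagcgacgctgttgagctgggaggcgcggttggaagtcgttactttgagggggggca
Tcf3, chr10:80433586-80433885, minus strand: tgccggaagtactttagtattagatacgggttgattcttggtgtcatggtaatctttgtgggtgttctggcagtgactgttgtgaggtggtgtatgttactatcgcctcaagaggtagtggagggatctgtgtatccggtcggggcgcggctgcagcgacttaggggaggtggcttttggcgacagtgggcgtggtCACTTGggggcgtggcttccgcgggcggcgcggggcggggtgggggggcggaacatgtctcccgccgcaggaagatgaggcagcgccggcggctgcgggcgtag
Id2, chr12:25096043-25096342, minus strand: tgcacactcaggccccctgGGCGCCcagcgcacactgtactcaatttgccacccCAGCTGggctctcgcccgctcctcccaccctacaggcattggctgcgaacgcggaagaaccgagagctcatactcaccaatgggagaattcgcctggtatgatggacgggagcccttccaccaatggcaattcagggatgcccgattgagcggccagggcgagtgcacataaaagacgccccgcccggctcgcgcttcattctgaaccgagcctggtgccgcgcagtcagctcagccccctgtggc
The windows of Twist1, Twist2, Id3 and Id4 held no CANNTG, whereas 72.3% of all 32851 RefSeq windows of this length held at least 1. Tcf3 held 1 (CACTTG, 54 bases upstream of the start), Id2 held 1 (CAGCTG, 196 bases upstream), and each of the 3 start windows of Tcf12 held 1 or 2. GGCGCC stood in 11.9% of all windows and, among the 7 genes, in those of Id4 (148 bases upstream) and Id2 (231 bases upstream). The windows of the gene that fell, Id4, and of the gene that did not pass, Id2, thus share that motif. G and C made up 66.0% of the window of Twist1, 64.7% of Twist2, 60.0% of Id3 and 73.3% of Id4. They made up 63.3% for Id2, 61.7% for Tcf3 and 36.3% to 75.7% for Tcf12, against a median of 52.7% over all windows. The shares over all windows make no allowance for that. These matches describe letters in a short window only and show no binding.

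With differentiation Id4, Twist1 and Tcf3 fell, and none of the 9 genes rose. Id4 was 2.19-fold lower and Twist1 1.96-fold lower in differentiated than in undifferentiated cells, and Tcf3 was 1.37-fold lower. The calls come from limma fitted over 41938 genes and unnamed probe sets, with p-values adjusted by Benjamini-Hochberg across that whole table and a threshold of 0.05. That rule called 9.04% of these entries lower and 7.97% higher, and among genes with a symbol 8.16% lower and 8.67% higher. Of the 9 genes, 3 were called lower, 0 higher and 6 did not pass. At an unadjusted p under 0.05 there were 4, the fourth being Twist2, which was lower. That threshold was met by 12658 of all 41938 entries, so such p-values are common in these data. The median log2 fold change of the 9 was 0.05, against 0.01 over all genes with a symbol.

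**Figure D1:**
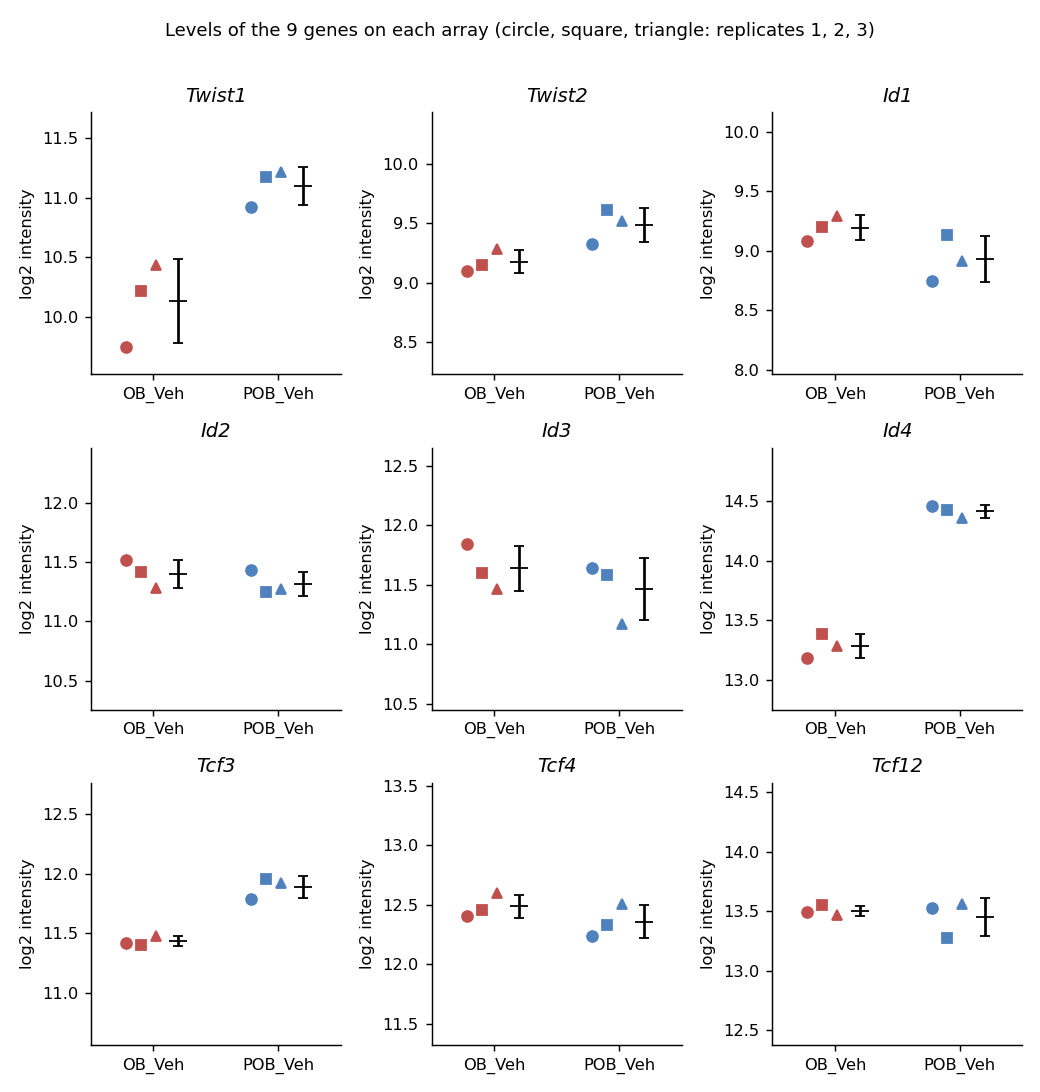
Normalized log2 intensity of each gene on each array (y axis, all panels spanning the same range), with OB_Veh left of POB_Veh, markers for replicates 1 to 3 and bars for mean ± SD (n = 3). The OB_Veh points of Id4, Twist1, Tcf3 and Twist2 all lie below the POB_Veh points, and the other 5 genes overlap.

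Levels are given as log2 of the authors' RMA intensities after quantile normalization of the 6 arrays. Random-sequence control probes, the background, read 6.69 to 6.80 on this scale, and all 9 genes lay above them on all 6 arrays. Only 5.75% to 6.77% of all probe sets lay below them on an array, so a level above them is common. Levels of different genes come from different probes and are not compared with each other. In RNA from whole cultures, fewer cells expressing a gene and less RNA per cell cannot be told apart. In the replicate numbers used here, differentiated replicates 1 and 2 are those of the per-array files. The deposited series table holds the same values with these 2 arrays exchanged, which leaves the group comparison as it is.

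Twist1, the bHLH factor of cranial mesenchyme, read 9.74, 10.22 and 10.43 log2 intensity in differentiated replicates 1, 2 and 3, against 10.92, 11.17 and 11.22 in undifferentiated replicates 1, 2 and 3. The groups did not overlap, and the differentiated arrays were the more spread, with differentiated replicate 1 the lowest. The means were 10.13 ± 0.35 in differentiated and 11.10 ± 0.16 in undifferentiated cells (SD, n = 3 each). Its log2 fold change was -0.97 ± 0.17 SE (limma adjusted p = 0.0065), and it ran from -1.11 to -0.79 when each array was left out in turn, with adjusted p from 0.00551 to 0.0285. As deposited, before normalization, its intensities were 878, 1184 and 1390 in differentiated cells and 1880, 2224 and 2595 in undifferentiated cells.

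Twist2, also known as Dermo1 and active in dermis and bone precursors, read 9.10, 9.15 and 9.28 in differentiated cells, against 9.33, 9.61 and 9.52 in undifferentiated cells. These groups did not overlap either, although the gap between them was small, so 4 of the 9 genes had groups apart, all 4 with differentiated arrays lower. Groups that do not overlap are common in these data: 34.8% of genes with a symbol showed it, made up of 16.6% with all differentiated arrays lower and 18.2% with all of them higher. The log2 fold change of Twist2 was -0.31 (95% confidence interval -0.55 to -0.07) and did not pass (limma adjusted p = 0.0844). It passed with array weights (-0.28, adjusted p = 0.022).

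The ratio of Twist1 to Twist2 on the same array tells whether the 2 genes changed alike. It stood at 0.65, 1.07 and 1.14 on the log2 scale in differentiated cells, against 1.59, 1.56 and 1.69 in undifferentiated cells. The ratio was thus lower on every differentiated array, by 0.66 ± 0.16 SE. The exact permutation test gave p = 0.1 (two-sided), which is the smallest that 3 against 3 arrays allow, and 0.167 adjusted over 10 pairs of family members. The ratios of the 2 groups were therefore fully apart, but a difference between the changes of the 2 genes could not pass this test.

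Among the inhibitors, Id4 had the lowest log2 fold change. It read 13.18, 13.39 and 13.29 log2 intensity in differentiated cells, against 14.46, 14.43 and 14.36 in undifferentiated cells. The groups were far apart and each was tight, with means of 13.29 ± 0.10 in differentiated and 14.42 ± 0.05 in undifferentiated cells (SD, n = 3 each). The log2 fold change was -1.13 ± 0.09 SE (limma adjusted p = 0.000128), with a range of -1.18 to -1.07 when each array was left out. On the deposited scale the intensities were 8891, 10668 and 10360 in differentiated and 22370, 21017 and 21842 in undifferentiated cells. A called fall of at least 2-fold was met by 0.877% of genes with a symbol, and of the 9 genes by Id4 alone.

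Id1, Id2 and Id3, the Id genes that answer early to BMP, did not pass in either direction. Id1 read 9.08, 9.20 and 9.29 in differentiated cells, against 8.75, 9.13 and 8.91 in undifferentiated cells. Its log2 fold change of 0.26 had a 95% confidence interval of -0.01 to 0.53 (limma adjusted p = 0.177), and the groups overlapped by 1 array, undifferentiated replicate 2. It was called higher with array weights (0.33, adjusted p = 0.0154).

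Id2 read 11.51, 11.41 and 11.28 in differentiated cells and 11.43, 11.25 and 11.27 in undifferentiated cells, and the groups overlapped by 1 array, undifferentiated replicate 1. Its log2 fold change was 0.09 (-0.15 to 0.32). Id3 read 11.84, 11.60 and 11.46 in differentiated cells and 11.64, 11.58 and 11.17 in undifferentiated cells, with a log2 fold change of 0.17 (-0.17 to 0.52). For Id2 and Id3 the intervals leave out a fall or a rise as large as the fall of Id4, and Id1's leaves out such a change as well.

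The Id ratios within arrays are built from the same values on the same arrays, so they are no separate evidence of this split. The log2 ratio of Id1 to Id4 was -4.10, -4.18 and -3.99 in differentiated cells, against -5.71, -5.30 and -5.45 in undifferentiated cells, a difference of 1.39 ± 0.13 SE. The ratio of Id2 to Id4 differed by 1.22 ± 0.12 SE and that of Id3 to Id4 by 1.30 ± 0.20 SE. In each of these 3 pairs the groups did not overlap, with the exact test at its smallest p of 0.1 (0.167 adjusted). The 3 pairs without Id4 overlapped and differed by -0.09 to 0.18, with exact p from 0.5 to 0.9.

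**Figure D2:**
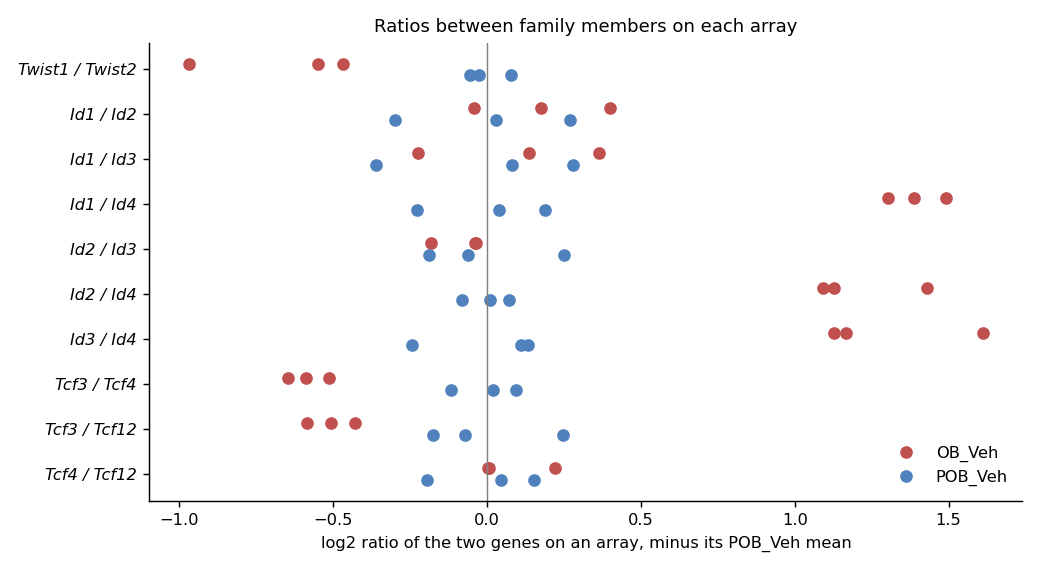
Log2 ratio of the 2 named genes on each array, centred on its mean in POB_Veh (x axis), for the 10 pairs within families, with OB_Veh points above POB_Veh points. The 6 pairs that hold exactly 1 of Twist1, Id4 and Tcf3 are separated by group, and the other 4 overlap.

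Of the E-proteins, Tcf3, which encodes the E2A proteins, fell by a small amount. It read 11.42, 11.40 and 11.48 log2 intensity in differentiated cells, against 11.79, 11.96 and 11.92 in undifferentiated cells. The groups did not overlap, and the differentiated arrays lay within a narrow band (11.43 ± 0.04, against 11.89 ± 0.09 in undifferentiated cells; SD, n = 3 each). Its log2 fold change was -0.45 ± 0.09 SE (limma adjusted p = 0.011). Without differentiated replicate 2 the call was lost (-0.44, adjusted p = 0.0683), which left Twist1 and Id4, 2 genes, called.

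Tcf4 and Tcf12, the other two E-protein genes, did not pass. Tcf4 read 12.40, 12.46 and 12.59 in differentiated cells, against 12.23, 12.33 and 12.51 in undifferentiated cells, with a log2 fold change of 0.13 (-0.11 to 0.37, limma adjusted p = 0.477). Tcf12 read 13.49, 13.55 and 13.47 in differentiated cells, against 13.52, 13.27 and 13.56 in undifferentiated cells. Its log2 fold change was 0.05 (-0.19 to 0.29), and both genes overlapped between groups.

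The log2 ratio of Tcf3 to Tcf4 was -0.98, -1.06 and -1.12 in differentiated cells, against -0.45, -0.37 and -0.58 in undifferentiated cells. It was lower on every differentiated array, with a change of -0.58 ± 0.07 SE, and the ratio of Tcf3 to Tcf12 changed by -0.51 ± 0.13 SE. Both pairs were separated by group, at the smallest exact p of 0.1 (0.167 adjusted). That of Tcf4 to Tcf12 changed by 0.08 ± 0.13 SE and overlapped (exact p = 0.6).

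**Figure D3:**
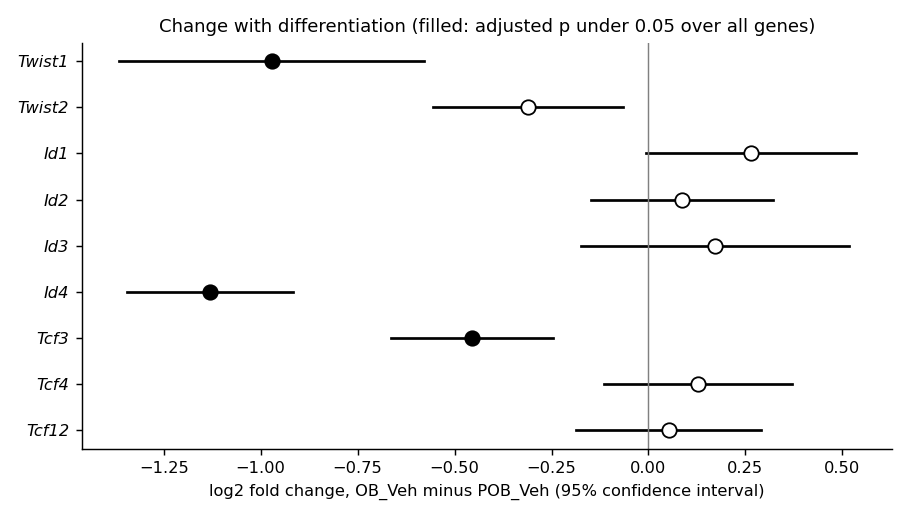
Log2 fold change of each gene, OB_Veh minus POB_Veh (x axis), with its 95% confidence interval from limma, filled where the adjusted p is under 0.05. Id4 (-1.13), Twist1 (-0.97) and Tcf3 (-0.45) are filled, Twist2 lies below 0 with an open point, and the intervals of the other 5 genes span 0.

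As family averages, with each gene centred on its own mean over the 6 arrays, the Twist genes stood 0.64 lower in differentiated than in undifferentiated cells, a difference of -0.64 on the log2 scale. The 4 Id genes differed by -0.15 and the 3 E-protein genes by -0.09. The Id average joins the fall of Id4 with log2 fold changes of 0.09 to 0.26 for Id1, Id2 and Id3, which did not pass. No test is given for these averages, since the genes were chosen with results of these data known.

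Some genes had profiles close to those of the 3 that fell, by the root mean square difference of mean-centred log2 values over the 6 arrays. For Twist1 these were Lrif1 (difference 0.097), the splicing protein gene Snrpb (0.0983) and the telomere-binding protein gene Terf1 (0.111). For Id4 they were Ifitm3, an interferon-induced membrane protein gene (0.0698), the protease inhibitor gene Serpinb1a (0.0709) and the topoisomerase gene Top2b (0.0865). For Tcf3 they were the homeobox gene Emx2 (0.0215), Ergic1 (0.0265) and the phosphodiesterase gene Pde8a (0.0345). All 9 of these genes were called lower in differentiated cells, as the choice by profile makes likely.

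Mitotic genes moved with the groups in the same direction as the 3 genes that fell. Of 20 measured, 17 were called lower and 0 higher, with a median log2 fold change of -0.73. Their mean deviation was -0.55, -0.45 and -0.04 in differentiated replicates 1, 2 and 3, against 0.36, 0.32 and 0.36 in undifferentiated replicates 1, 2 and 3. Differentiated replicate 3, highest of its group in mitotic genes, was also the highest of its group for Twist1, Twist2 and Tcf3. The same held for Id1 and Tcf4, which did not fall, but not for Id4, Id2, Id3 or Tcf12. Ube2c, a mitotic ubiquitin-conjugating enzyme, fell 2.18-fold (limma adjusted p = 0.0011). Without differentiated replicate 2 only 4 mitotic genes were called lower, 8 without differentiated replicate 1, 7 without undifferentiated replicate 1 and 11 without undifferentiated replicate 2. Their part in the falls of Twist1, Id4 and Tcf3 was not tested.

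All 13 osteoblast markers, among them Col1a1, Col1a2, Runx2 and Sp7, lay above the random probes on every array. So did most of the array, since only 5.75% to 6.77% of all probe sets lay below them, and this alone marks no cell type. Of the 13 markers 7 rose and 0 fell, against 8.67% called higher and 8.16% lower among all genes with a symbol. Alpl, the alkaline phosphatase of mineralizing cells, rose 8.10-fold and Dmp1 7.77-fold. Many markers of other cell types also lay above the random probes. All 8 adipocyte, all 7 muscle and all 6 leukocyte markers did so on all 6 arrays, as did 3 of 4 tendon markers. Of 6 endothelial markers 5 did so on all differentiated and 4 on all undifferentiated arrays, and of 7 cartilage markers 6 on all differentiated and 5 on all undifferentiated arrays. Tnmd (tendon) and Cdh5 (endothelium) were not above the random probes on any array. The other tendon markers, Scx, Mkx and Thbs4, and the endothelial markers Pecam1, Kdr, Tek and Emcn were above them on all 6 arrays. Of 6 endothelial markers Tek and Pecam1 were called higher and 0 lower, and of 8 adipocyte markers Cebpa was called higher and Adipoq lower, at 6.88 in differentiated and 7.30 in undifferentiated cells. Of 7 muscle markers 1 (Des) and of 7 cartilage markers 1 (Comp) were called higher. None of 4 tendon or 6 leukocyte markers passed. At an unadjusted p under 0.05 there were 0 and 1 of them, against 12658 of all 41938 entries. Summed endothelial marker levels ran from 11.25 to 11.29 in differentiated and 10.77 to 10.95 in undifferentiated cells, and summed adipocyte marker levels from 13.18 to 13.28 in differentiated and 12.52 to 12.69 in undifferentiated cells, as log2 of the sum. Such a sum follows the brightest probe set, which for the adipocyte list was that of Cebpa (12.76 in differentiated and 11.81 in undifferentiated cells), and the median log2 fold change of that list was -0.02. The calls of Pecam1, Adipoq and Des were each lost in 3 or 4 of the 6 fits that left out an array. Those of Tek (2.81-fold higher, limma adjusted p = 0.000815), Cebpa and Comp were kept in all 6. The part of other cell types in the results was not tested.

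None of the other tissue-restricted bHLH genes, the class to which Twist1 and Twist2 belong, passed the limma test. Of 40 measured, 0 were called, against 8.67% called higher and 8.16% lower among all genes with a symbol. The median log2 fold change of the 40 was 0.02. At an unadjusted p under 0.05 there was 1, against 12658 of all 41938 entries. That 1 was Bhlhe23, at 9.02 ± 0.09 in differentiated and 8.72 ± 0.09 in undifferentiated cells (SD, n = 3 each, adjusted p = 0.0717). Scx, the bHLH factor of tendon, read 11.72 ± 0.18 in differentiated and 11.45 ± 0.29 in undifferentiated cells (SD, n = 3 each). With array weights 1 was called higher and 2 lower, and without undifferentiated replicate 3, 1 was called lower. Hand1, Tal2, Neurod1 and Olig3 were not above the random probes in either group. Of 12 Hes, Hey and Dec genes, bHLH repressors of another branch, 1 was called higher and 0 lower. For higher calls this is near the 8.67% over all genes with a symbol. The gene called was Bhlhe41, a clock-linked repressor, 1.81-fold higher (limma adjusted p = 0.00914).

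Genes that govern BMP signals, the classical inducers of Id genes, moved more among secreted proteins than among receptors by count, a contrast that was not tested. Of 19 ligands and secreted antagonists, 5 were called higher and 2 lower, against 8.67% and 8.16% of all genes with a symbol. The higher calls numbered 4 with the deposited values or median centring, and 6 with a replicate block or array weights. One of them, Twsg1, lost its call in 5 of the 6 fits that left out an array. The ligand gene Bmp4 rose 2.14-fold, to 12.94 ± 0.11 in differentiated cells, against 11.85 ± 0.05 in undifferentiated cells (SD, n = 3 each). The antagonist gene Sostdc1 rose 2.66-fold. Bmper, which encodes a secreted BMP-binding protein, fell 17.2-fold, to 8.94 ± 0.12 in differentiated cells, against 13.04 ± 0.22 in undifferentiated cells (SD, n = 3 each).

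Over all genes with a symbol 8.67% were called higher and 8.16% lower, so a few calls in short lists are common. Of 14 BMP receptor and SMAD genes, 1, the co-receptor gene Rgma, was called higher (1.49-fold) and 0 lower. Leaving out differentiated replicate 1 (limma adjusted p = 0.0511) or 2 (0.0572) ended that call. Leaving out undifferentiated replicate 3 gave 3 higher calls and 1 lower. Of 11 BMP-SMAD target genes other than Id genes, 1 was called higher (Dlx3, 1.36-fold) and 2 lower. Junb, an AP-1 subunit gene, and the homeobox gene Dlx5 fell, each with a log2 fold change of -0.68. The call of Dlx5 was lost without differentiated replicate 2 (limma adjusted p = 0.067) or undifferentiated replicate 1 (0.0549). The call of Dlx3 was lost when any array other than undifferentiated replicate 2 was left out, with limma adjusted p from 0.0546 to 0.143. It was lost too on the scale as deposited and after median centring. Smad6, an inhibitory SMAD and BMP target, read 9.16 in differentiated and 9.36 in undifferentiated cells and did not pass.

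**Figure D4:**
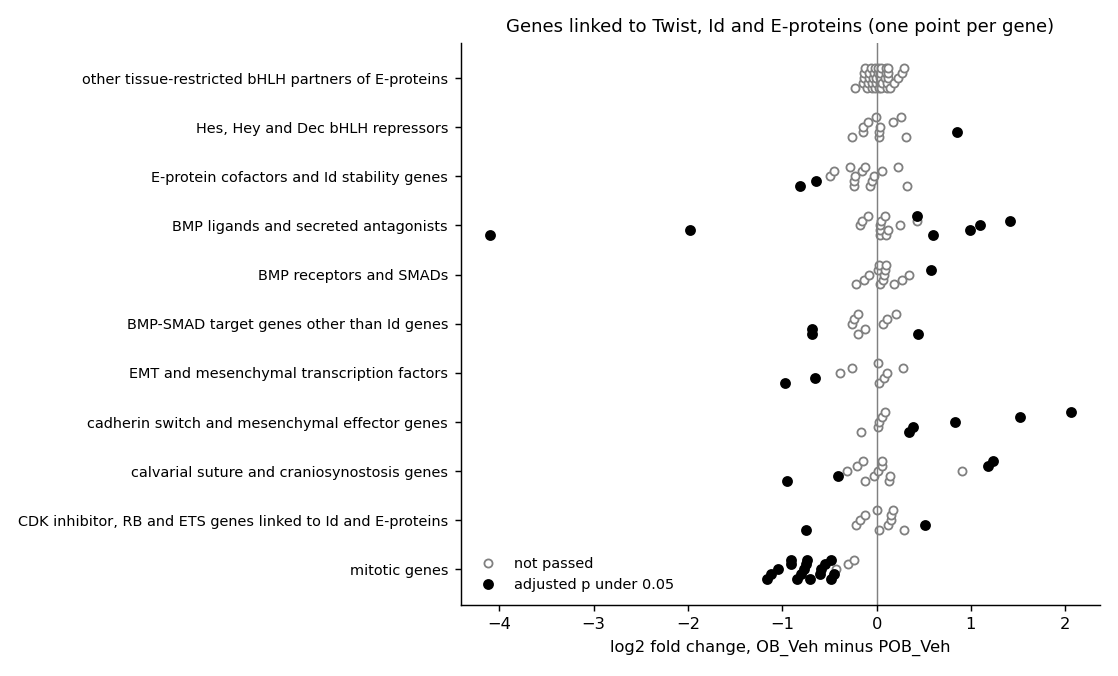
Log2 fold change of every measured gene of 11 lists linked to Twist, Id and E-proteins (x axis, OB_Veh minus POB_Veh), filled where the limma adjusted p is under 0.05. No bHLH partner of the top row is filled, 17 of 20 mitotic genes are filled and below 0, and Bmper (-4.10) lies farthest left.

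Twist1 is known as a driver of epithelial-mesenchymal transition, together with the SNAI and ZEB factors. Of 9 such transcription factor genes, 0 rose and 2 fell: Foxc2 1.96-fold (limma adjusted p = 0.0117, 0.0514 without differentiated replicate 2) and Prrx2, a homeobox gene of limb and skull mesenchyme, 1.57-fold. The lower calls numbered 1 without differentiated replicate 2, 3 without differentiated replicate 3 or with a replicate block, and 4 with array weights. Among all genes with a symbol 8.67% were called higher and 8.16% lower. Snai2 read 9.93 in differentiated and 9.92 in undifferentiated cells. Of 10 cadherin and mesenchymal effector genes, 5 rose and 0 fell, and 3 rose when any array other than undifferentiated replicate 3 was left out, or with the deposited values or median centring.

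Cdh1, which encodes E-cadherin and is a known target of repression by Twist1, read 10.33, 10.21 and 10.46 in differentiated cells, against 8.90, 8.54 and 9.01 in undifferentiated cells. That is 2.87-fold higher, with no overlap (limma adjusted p = 0.000187). Cdh2, which encodes N-cadherin, did not pass, at 10.11 ± 0.12 in differentiated and 10.09 ± 0.27 in undifferentiated cells (SD, n = 3 each). The matrix gene Tnc rose 4.19-fold and the PDGF receptor gene Pdgfra 1.78-fold, so that the list's rising genes hold E-cadherin, an epithelial gene, beside mesenchymal ones.

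Calvarial suture genes, the setting in which TWIST1 and TCF12 are known from human disease, had 2 of 15 called higher and 2 lower. Over all genes with a symbol the shares were 8.67% higher and 8.16% lower, so a few such calls are common. Fgfr2, the FGF receptor mutated in Apert and Crouzon syndromes, read 14.61, 14.40 and 14.26 in differentiated cells, against 13.12, 13.16 and 13.31 in undifferentiated cells, 2.34-fold higher. These values are from its brightest probe set: the Fgfr2 log2 fold change was 1.23 there, 0.71 with another of its probe sets and 0.97 with their mean, called in each. Fgfr3 rose 2.27-fold, and the Notch ligand gene Jag1 fell 1.93-fold. The second gene called lower, Gli3, was lost without differentiated replicate 2 or 3 or undifferentiated replicate 1. Runx2, which Twist1 protein is known to bind and inhibit, read 12.47 ± 0.10 in differentiated and 12.46 ± 0.02 in undifferentiated cells (SD, n = 3 each).

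Of 16 genes for E-protein cofactors and Id stability, 0 rose and 2 fell, against 8.67% called higher and 8.16% lower among all genes with a symbol. Ep300, the acetyltransferase that E-proteins recruit, fell 1.56-fold (limma adjusted p = 0.00152), and Fzr1, an activator of the anaphase-promoting complex that targets Id proteins among others, fell 1.75-fold. The lower calls numbered 3 without undifferentiated replicate 2, 4 with a replicate block and 7 with array weights. The replicate block and array weights each also called 1 of these genes higher. Of 12 CDK inhibitor, RB and ETS genes, 1 rose and 1 fell, near these shares over all genes with a symbol. The counts were 0 and 0 without differentiated replicate 2, and 0 rose with median centring. The RB relative Rbl2 rose 1.43-fold and the CDK inhibitor gene Cdkn1b fell 1.68-fold, with adjusted p = 0.0629 and 0.0508 without that array.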

How the data were processed

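RNA of 6 cultures was measured on single-colour NimbleGen arrays. The authors deposited 1 intensity per probe set on a linear scale, made with RMA per the submitters' processing notes. The RMA software, its version and the build of the array design are not given in the sources used here. A file has 42587 lines per array, and the 1 line of random-sequence probes served as background and entered no test. The deposited file headers give other columns, such as the number of probes per set, with no bearing on RNA. Median deposited intensities were 806 to 845. Counting depth does not apply to intensities, and 3 arrays per group limit the precision.

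Values were put on the log2 scale by this work. Sorted values of arrays differed by a median of up to 0.135, over the set limit of 0.02, so the 6 arrays were quantile normalized. Accessions were matched to RefSeq for names (17849 by accession, 130 by symbol or synonym). A gene's probe set with the highest mean stood for it. Differentiated and undifferentiated arrays were compared over 41938 entries by limma 3.58.1 (lmFit, eBayes, two-sided; R 4.3.3), with Benjamini-Hochberg adjustment over all. Ratios within arrays were compared by exact permutation in scipy 1.17.1. The fit was tested on simulated data.

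The members, lists and tests were chosen with earlier results of these data known. Named genes were all members, up to 3 called genes per list with the largest change (1 if none was called), and the 3 nearest profiles per called member. One gene that this rule names is not reported here. Bmp4, Twsg1, Gli3, Smad6, Snai2, Cdh2, Runx2 and the further marker genes and genes at background were named after their values were seen. Alternatives were the deposited values, median centring, a filter at the 25th percentile, the mean of probe sets or every probe set, an offset of 50, array weights, eBayes with a trend and robust prior, a replicate block and leaving out each array. The series table held the same values with 2 differentiated arrays exchanged, so the group comparison had no separate result from it. Its replicate numbers were used in a second replicate block.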

Additional observations from a re-analysis of the deposited data

How the results depend on the processing

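The falls of Id4 and Twist1 kept their call under every alternative run, and that of Tcf3 under all but 1 (-0.44 without differentiated replicate 2, within a range of -0.51 to -0.42). Of 144 comparisons of the 9 genes with an alternative, 139 kept direction and call. With array weights, which gave differentiated replicate 2 a weight of 11.1 and undifferentiated replicate 3 one of 0.24, Twist2 (-0.28) and Id1 (0.33) passed, so that 1 of the 9 genes was called higher and 4 lower. Array weights also called 7587 of all 41938 entries, genes and unnamed probe sets, higher and 8259 lower, against 3343 and 3792. Leaving out 1 array in turn gave 1568 to 4574 higher and 1566 to 4896 lower calls, the lowest counts without differentiated replicate 2, and 2174 and 2061 without differentiated replicate 1. Of the 9 genes it left 0 called higher and 2 to 3 lower. Tcf12, near 0, ran from -0.038 to 0.11, the negative value without undifferentiated replicate 2. The change in ratio of Id1 to Id3 ran from -0.089 to 0.25, that of Id2 to Id3 from -0.18 to 0.040, and that of Tcf4 to Tcf12 from -0.022 to 0.15, so none has a settled sign. Of 700 comparisons of other named genes, 35 lost a call, 1 gained one and 0 changed sign.

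Replicate numbers are not stated to pair the cultures. Deviations of same-numbered arrays correlated at 0.33, -0.14 and 0.46 for replicates 1, 2 and 3, and differentiated replicate 1 correlated better with undifferentiated replicate 2 (0.43) than with its own number. The replicate block gave 4117 higher and 4867 lower calls over all entries, with Twist1 at -0.97, Id4 at -1.13 and Tcf3 at -0.45 still called. With the numbers of the series table, a setting chosen after seeing the data, 5708 entries were called lower and Twist2 passed (-0.31, limma adjusted p = 0.0497).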
